A study of Mus musculus with 6 samples.

Results

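The BAZ2A peaks described here lie in 3' untranslated regions (3'UTRs), the part of an mRNA that follows the coding sequence (CDS). A peak was a member if its midpoint lay in a 3'UTR of any transcript of the gene the list names and in no CDS of that gene, in the GENCODE M21 annotation of mm10. Of the 3127 peaks in the list, 497 were members (15.9%, Wilson 95% interval over peaks 14.7 to 17.2), in 435 of the 2288 genes listed. The study made 6 libraries by iCLIP, in which a protein is fixed by UV light to RNA in contact with it and the precipitated RNA is sequenced. All came from E14 mouse embryonic stem cells (ESCs), kept in N2B27 medium with LIF/2i, whose endogenous BAZ2A carries Flag and HA tags, and in all of them nuclei were isolated first and the protein was precipitated with anti-FLAG. The 3 crosslinked libraries were from cells given 400 mJ/cm2 of UV-C light at 254 nm, and the 3 background libraries were from the same cells without crosslinking. Both groups therefore carried the tags, and no library of untagged cells was analysed here. The authors called the peaks of the crosslinked libraries against the background libraries as a single list, so that no peak has a value per library or a replicate error, no test between samples could be made, and the read depth behind a peak is unknown. Each interval given below covers the counting of peaks only.

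A 3'UTR carries the poly(A) signal that ends the mRNA, and it holds sites where proteins and microRNAs set how long an mRNA lives, where it goes and how well it is translated. BAZ2A, also called TIP5, is the large subunit of the nucleolar remodeling complex NoRC, known for the silencing of ribosomal RNA genes, and its TAM domain binds RNA. The authors state, from earlier work, that BAZ2A does not serve this nucleolar role in ESCs. The mRNAs of replication-dependent histones are an exception among 3'UTRs: they end in a short stem-loop in place of a poly(A) tail, and the stem-loop binding protein acts on it in the nucleus.

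The 10 members with the highest score are shown first, since they head every ranking below. Each window of 30 nt was read from the GRCm38 genome on the strand of the RNA, 5′ to 3′ and as DNA letters, and the capital marks the mode, the single position that the list gives inside each peak. The 2 windows of Lars2 belong to different peaks.
Lars2, chr9:123461981-123462010, plus strand: gccaagcgttcataGcgacgtcgctttttg
Tmem245, chr4:56870756-56870785, minus strand: ctgaaggaggcagaAgcaggaggatcgcga
Lars2, chr9:123462098-123462127, plus strand: ggattagaccgtcgTgagacaggttagttt
Slc2a3, chr6:122729070-122729099, minus strand: catggagtccagacAagggaggggtcaccg
Cfl1, chr19:5493793-5493822, plus strand: cgacacccctactcCgtatccctccccatc
Hist1h4d, chr13:23581937-23581966, plus strand: cccaaaaaccaaagGcccttttcagggcca
Cd81, chr7:143067527-143067556, plus strand: tttttttttttgtcCtgaacttttcctgtt
Trim28, chr7:13030961-13030990, plus strand: catcgtcccctcagTccctcttcacaaaat
Eif4a1, chr11:69667219-69667248, minus strand: ctgccccaggcgccGtctccttcccccccc
Emc10, chr7:44490492-44490521, minus strand: ctgtcactctccagCcctttgccaaggatc

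The 6 members in histone genes are shown because 5 of them reached into the same element. The capitals mark the histone stem-loop of 16 nt, found by its letters in each 3'UTR. The stem-loops of Hist1h1e and Hist1h2bh had the same letters.
Hist1h4d, chr13:23581943-23581972, plus strand: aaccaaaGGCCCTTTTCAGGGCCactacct
Hist1h1e, chr13:23621775-23621804, minus strand: acccaaaGGCTCTTTTCAGAGCCacccaca
Hist1h3g, chr13:23535882-23535911, plus strand: ctttaaaGGCTCTTCTTAGAGCCacccatc
Hist1h4a, chr13:23760793-23760822, minus strand: aaccaaaGGCCCTTCTCAGGGCCgcccaca
Hist1h2bk, chr13:22036293-22036322, plus strand: caccaaaGGCTCTTTTAAGAGCCactaaac
Hist1h2bh, chr13:23542921-23542950, minus strand: acccaaaGGCTCTTTTCAGAGCCactcaag

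A window of Tfrc, which encodes the transferrin receptor, is shown because a member covered an iron-responsive element there. As background, such elements are hairpins bound by the iron regulatory proteins, which protect this mRNA from decay when iron is low. The capitals mark the pattern searched: a C, 5 bases, the loop CAGTGN, and 5 bases that pair with the first 5, with G-U pairs allowed. The N of the loop was A, C or T and not G.
Tfrc, chr16:32631598-32631627, plus strand: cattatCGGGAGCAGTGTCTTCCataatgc

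The next windows show the 3 members with the highest score that held CCTCCT or TCCTCC, the pyrimidine 6-mers described below, with the first such 6-mer of the peak in capitals.
Tubb5, chr17:35834901-35834930, minus strand: aactgccctttgTCCTCCagtttctttctg
Tbc1d13, chr2:30150537-30150566, plus strand: accctggcgctcTCCTCCcctctgctccct
Hsp90ab1, chr17:45567995-45568024, minus strand: ggtggattaaagCCTCCTggaagaagccct

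The last windows show 2 of the 3 members with the highest score that lay within 100 nt of an annotated 3' end and held a poly(A) signal, AATAAA or ATTAAA, which is in capitals.
Tecr, chr8:83571700-83571729, minus strand: tccagcagcaacAATAAAacctgcttaccc
Rps6ka1, chr4:133847295-133847324, minus strand: caaggcctttctAATAAActtacaatccag

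The score is the number that the authors' peak caller gave each peak. Among the members it ran from 1.37 to 266, with a median of 4.60 (95% interval over peaks 4.31 to 5.01) and quartiles of 3.29 and 6.86. A score above 10 was reached by 61 members, and a score above 20 by 13. The lengths ran from 10 to 268 nt, with a median of 64 nt (61 to 66). Longer members had higher scores, with a Spearman correlation of 0.76 over the 497 members, given as a description, since score and length come from the same calls. With the members cut by score into 4 groups of nearly equal size, the median length was 37 nt in the lowest group and 102.5 nt in the highest. The members took 13.6% of the summed score of the list, beside their 15.9% of its peaks, and 274 of them (55.1%, 50.7 to 59.4) scored above its median peak. In the top 10% of the list there were 40 members, 8.05% of the 497 (5.97 to 10.8).

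**Figure D1:**
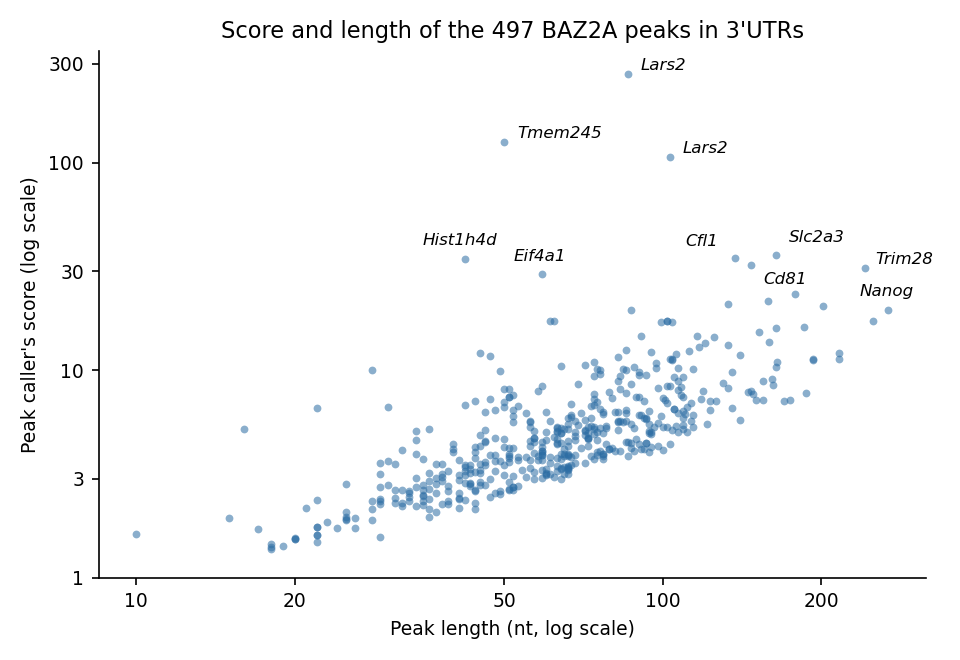
Score against length for the 497 members, both on log scales; each point is a peak and 10 of the highest-scored ones are named by gene. Most points rise together along a band, and the 3 peaks above 100, of Lars2 and Tmem245, stand far above members of the same length.

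Beside the other classes of peak, the members resembled CDS peaks in size. The median score was 4.64 (4.41 to 4.82) for the 720 CDS peaks, 5.49 (4.85 to 6.44) for the 214 5'UTR peaks, 3.81 (3.70 to 3.94) for the 1539 intron peaks and 5.49 (4.46 to 6.20) for the 154 peaks in non-coding exons. The median lengths were 63 nt in CDS, 79 nt in 5'UTRs, 52 nt in introns and 62.5 nt in non-coding exons. Peaks of 18 nt or shorter were few among the members, with 7 of 497 (1.41%, 0.684 to 2.88), beside 5.69% (4.23 to 7.63) in CDS and 13.3% (11.7 to 15.04) in introns. None of these differences between classes could be tested against replicates.

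The top of the ranking was held by sequences with copies elsewhere. Lars2, the mitochondrial leucyl-tRNA synthetase, had members scoring 266 and 106, which ranked 4 and 16 in the whole list and were the only peaks of that gene. Tmem245, a membrane protein gene, had the member with a score of 126, and the fourth score, in Slc2a3, was 36.0. These 3 peaks held 14.6% of the summed score of all members. The first Lars2 peak of 86 nt had 7 other copies in the genome at 90% identity or more over at least 80% of its length, the best at 97.7%, and the second, of 103 nt, had 4, the best at 97.1%. As background, the 3'UTR of mouse Lars2 holds sequence of the kind found in large-subunit ribosomal RNA, and the full ribosomal RNA was not analysed here. The Tmem245 peak of 50 nt lay wholly in repeat-masked sequence, had 569 such copies, and matched 39 other peaks of the list, all in introns. Which copy the reads came from cannot be told from the list. The mean GC content and the median score of the members changed little without these 3 peaks, to 48.9% and 4.59.

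The other members among the 15 highest came from mRNAs of varied function, and most had no copy within the limits above. Slc2a3, a glucose transporter, scored 36.0 over 164 nt at 898 nt after the CDS. Cfl1, the actin-severing protein cofilin, scored 34.7, and Hist1h4d, a histone H4 gene, scored 34.3 over a peak of only 42 nt. Cd81, a tetraspanin of the cell surface, scored 32.3, and Trim28, a corepressor that silences retroelements, scored 31.2 over 242 nt that ran across the stop codon. Eif4a1, an RNA helicase of translation initiation, scored 29.2, and Emc10, a subunit of a membrane protein insertion complex, scored 23.3. Cdh1, the adhesion protein E-cadherin, scored 21.5, Tubb5, a beta-tubulin, 20.9, and Tbc1d13, a Rab GTPase-activating protein, 20.4. Hsp90ab1, a chaperone, and Nanog, a pluripotency transcription factor, both scored 19.5, and the Nanog peak of 268 nt was the longest member. Of these 12 peaks, 9 had no other copy in the genome at that identity and length. The exceptions were Eif4a1 with 4 copies, Cfl1 with 2 and Nanog with 1. The Nanog peak was 77.2% repeat-masked, and 153859 places matched some part of it at any identity and length. The Tubb5 peak, without a copy, was 58.6% repeat-masked. RNA levels were not analysed here, so a score cannot be set against the abundance of its mRNA.

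Members lay along the whole 3'UTR, with the most in the part next to the stop codon when measured on the longest 3'UTR. Positions were measured along the spliced transcript with the longest 3'UTR that holds the midpoint, with the stop codon counted as the start of the 3'UTR. The median 3'UTR of a member was 1628 nt long, and the median relative position was 0.464 (0.408 to 0.534), where 0 is the stop codon and 1 the annotated end. With the shortest 3'UTR that holds the midpoint, the median was 0.517 (0.465 to 0.556). The choice of transcript thus moved it across the middle. With the 3'UTR cut into 5 equal parts from the stop codon to the end, the parts held 125, 98, 83, 93 and 98 members. The first part held 25.2% (21.5 to 29.1), above the 20% of an even spread, and the middle part 16.7% (13.7 to 20.2). A midpoint within 100 nt of the CDS was found in 59 members (11.9%, 9.32 to 15.01), and a midpoint within 100 nt of an annotated 3' end of the gene in 120 (24.1%, 20.6 to 28.1). On average 18.7% of the bases of a member's 3'UTR lay that close to an annotated end.

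A window of 100 nt takes up more of a short 3'UTR than of a long one, so the share of members near an end is given beside the mean share of 3'UTR bases that lie as near. In 3'UTRs of up to 500 nt, 64.5% (52.1 to 75.3) of 62 members lay within 100 nt of an end, beside 55.8% of the bases. The share was 26.3% (18.6 to 35.7) of 99 members for 3'UTRs up to 1000 nt, beside 21.9% of the bases, and 20.5% (14.5 to 28.1) of 132 members up to 2000 nt, beside 16.2%. Above that it was 13.2% (9.26 to 18.6) of 204 members, beside 7.49% of the bases. The fall from short to long 3'UTRs is thus largely built in, and the interval lay above the share of bases only in the longest group. In the longest group the members sat toward the stop codon, with a median relative position of 0.350 (0.297 to 0.446), beside 0.557 (0.408 to 0.746) in the shortest group. The groups and the positions both rest on the longest 3'UTR that holds the midpoint. The positions by group were not measured on a shorter 3'UTR. The score fell only slightly over these groups, from a median of 5.51 (4.19 to 6.77) in the shortest 3'UTRs to 4.21 (3.90 to 4.84) in the longest, and the intervals overlapped. The genes with members had long 3'UTRs, with a median merged length of 1628 nt (1423 to 1837) beside 986 nt (963 to 1009) for the 21769 protein-coding genes with an annotated 3'UTR. A longer 3'UTR has more bases in which a midpoint can fall, so a difference in this direction is built in. RNA levels were not analysed here, so genes without RNA in these cells were not left out of the 21769.

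**Figure D2:**
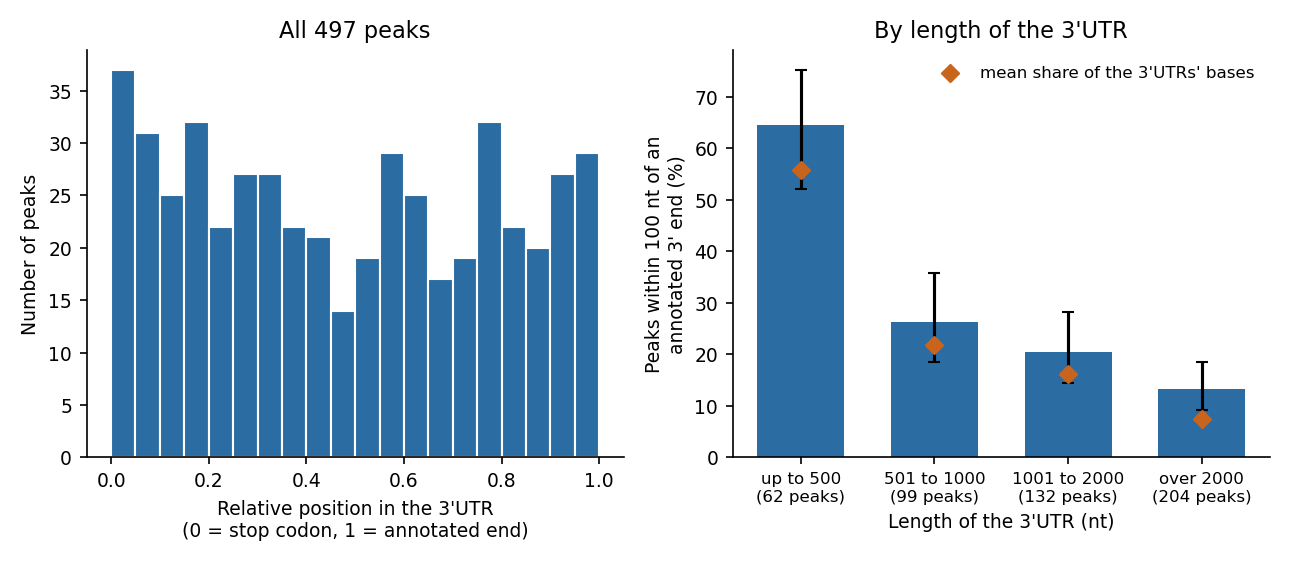
Left, number of members in equal bins of the 3'UTR from stop codon to annotated end; right, percentage of members within 100 nt of an annotated 3' end, with Wilson 95% intervals over peaks, by length of the 3'UTR, and the mean share of 3'UTR bases as near to an end (diamonds). On the left, the first of 5 equal parts holds 25.2% of members; on the right, bars and diamonds fall together, and the diamond lies below the interval only for 3'UTRs over 2000 nt.

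At the border with the coding sequence, 25 members (5.03%, 3.43 to 7.32) overlapped a CDS base. Among them were Trim28 with a score of 31.2, the histone gene Hist1h3g with 17.1 and the cholesterol-binding protein gene Npc2 with 11.3. The class of a member also depended on the transcript: 340 members (68.4%, 64.2 to 72.3) lay in no other class in any transcript of the gene, 61 fell in an intron and 107 in a non-coding exon of another transcript. An exon of another gene on the opposite strand covered the midpoint of 24 members, and one on the same strand covered 6. For 31 members the list also holds the same interval on the opposite strand, under another gene, among them those of Sec61a1, Srsf2, Slc2a1 and Ptbp1 named below, and which strand the reads came from cannot be told from the list.

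In histone mRNAs the members lay on or beside the stem-loop. In the 6 genes with a member the stem-loop lay between 32 and 59 nt after the CDS. Since these mRNAs end at the stem-loop, the mRNA leaves a member little room elsewhere. The rule for members used the annotated 3'UTRs, which ran on past it. They were 825 nt long in Hist1h4d, 1212 nt in Hist1h1e and 1261 nt in Hist1h2bh, and 81 to 157 nt in the others. What set the place of these members was not tested. Of the 67 protein-coding genes whose symbol starts with Hist, 62 have the stem-loop within 200 nt of the CDS, and 15 genes had 16 peaks, 6 of them members. In Hist1h4d (histone H4, score 34.3) the peak ran from 19 to 60 nt after the CDS and the stem-loop from 40 to 55 nt. The peaks of Hist1h1e (linker histone H1, 17.3), Hist1h3g (histone H3, 17.1) and Hist1h4a (histone H4, 12.1) also held the whole stem-loop, and these 4 peaks ended 2 to 5 nt after it. The peak of Hist1h2bh (histone H2B, 1.94) ended inside it, with 9 of the 16 bases covered. The peak of Hist1h2bk (histone H2B, 10.0) ended at 35 nt, directly before a stem-loop that starts at 36 nt. The histone members had a median score of 14.6, and 5 of the 6 were above the median of all members.

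The 10 histone peaks classed as CDS lay upstream of the element. Of these, 1 touched the stem-loop, that of Hist1h3e with 8 bases, and the furthest of them ended 47 nt after the CDS. Their scores ran up to 28.6, in Hist1h4h. No member outside the histone genes held the stem-loop letters. Among peaks of the other classes, no histone peak and 1 peak outside the histone genes held these letters. Among consecutive windows of 60 nt over all annotated 3'UTRs, 0.00834% held them, beside 5 of 497 windows of 60 nt at the members (1.01%, 0.430 to 2.33). The limit given above for the place of the histone members holds here too. Histone genes of the same type are closely similar in their coding sequences. None of the 6 peaks had another copy in the genome at 90% identity over 80% of its length, but that of Hist1h3g had 12 matches below these limits and matched 2 other peaks of the list. The peaks of 26 and 28 nt are too short for this search to say much.

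**Figure D3:**
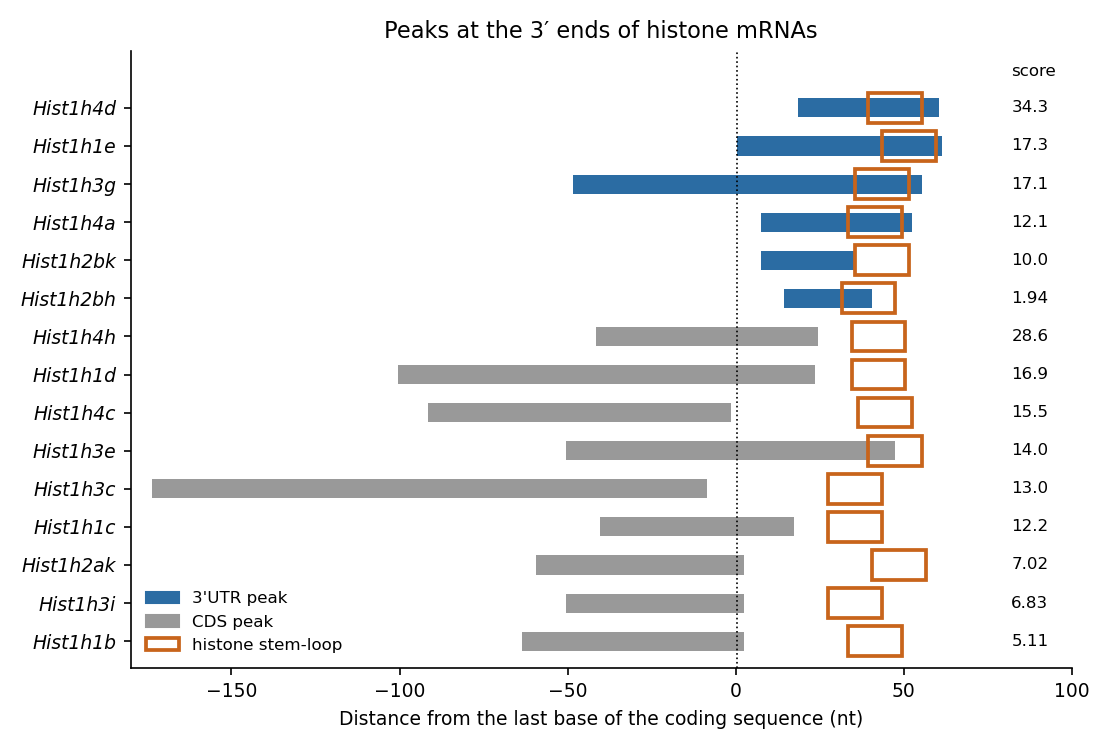
Histone peaks along the distance in nt from the last CDS base (dotted line), with members in blue, CDS peaks in grey, the stem-loop as an orange box and the score of each peak at the right; a CDS peak of Hist1h1d that ends 611 nt before that base is not drawn. The blue bars of 4 genes cover the whole box, and the grey bar of 1 gene, Hist1h3e, enters it.

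Most genes had a single member. There were 382 genes with 1 member, 46 with 2, 5 with 3 and 2 with 4. Neighboring members of a gene were separated by a median of 352.5 nt (200 to 624, 62 pairs, measured on the genome), and 22 pairs were closer than 200 nt. The genes with 4 were Slc38a1, a glutamine transporter, and Gpa33, a cell surface antigen. In Slc38a1 the members scored 6.76, 4.61, 4.29 and 7.12, at 3, 540, 1266 and 3074 nt after the CDS. In Gpa33 they scored 3.26, 5.20, 4.67 and 3.93, at 58, 250, 1004 and 1202 nt. These genes had no peak of another class.

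The genes with 3 members were of varied function. Slc6a6, the taurine transporter, had a member of 13.6 at 1671 nt between members of 4.22 at 389 nt and 3.84 at 3238 nt. Alg13, which takes part in the synthesis of N-glycan precursors, had members of 9.84, 11.4 and 2.30, all of which lay in a non-coding exon of another transcript too, and 3 intron peaks. Akap1, which anchors protein kinase A at mitochondria, had members of 3.69, 2.39 and 7.19 at 1471, 1619 and 1915 nt of a 3'UTR of 2003 nt. Tfcp2l1, a transcription factor of naive pluripotency, had members of 3.41, 5.57 and 4.20 at 513, 2241 and 5375 nt of a 3'UTR of 7737 nt.

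Tfrc had members of 3.24, 3.11 and 4.88, at 244, 1261 and 2030 nt after the CDS, and 2 CDS peaks. Its 3'UTR of 2461 nt held the iron-responsive element pattern 4 times, starting at 892, 1271, 1336 and 1383 nt. The second member, of 52 nt, covered all 17 nt of the pattern that starts at 1271 nt, and no other member touched a pattern in any gene. Of the 21759 protein-coding genes with a 3'UTR on the chromosomes searched, which leave out 10 genes on other sequences, 109 (0.501%) held the pattern in an annotated 3'UTR. Hence 1 of the 4 patterns in Tfrc lay under a peak, at a score below the median of the members.

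**Figure D4:**
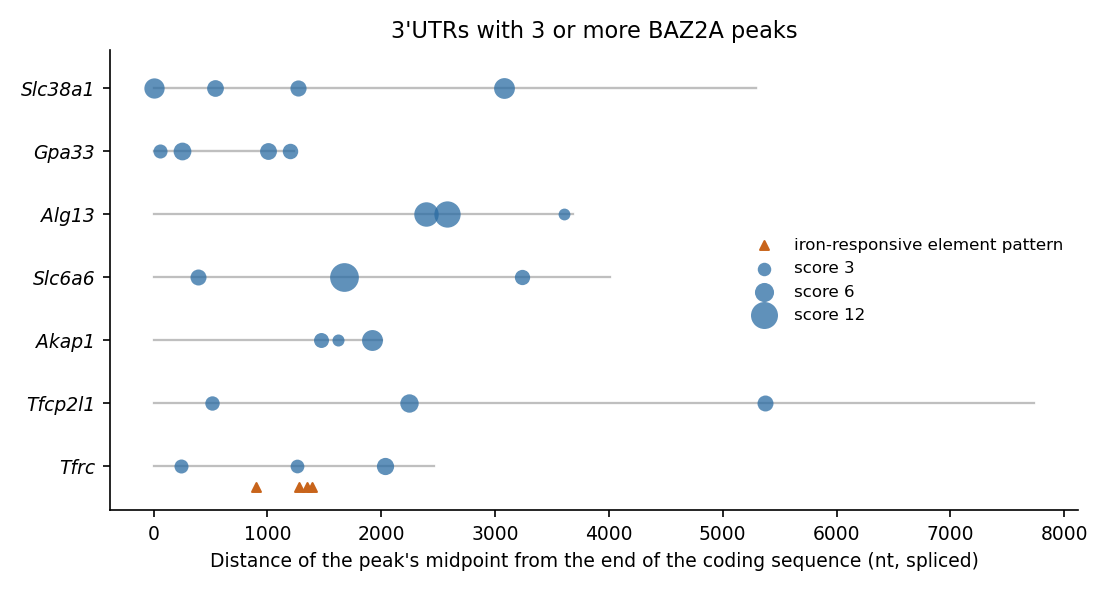
The 7 genes with 3 or more members, each grey line a 3'UTR from the end of the CDS to its annotated end, in nt along the spliced transcript; each circle is a member and its area is in proportion to its score, and triangles mark the iron-responsive element pattern in Tfrc. The 3 circles of Akap1 lie together toward its annotated end, and the second Tfrc circle stands over the second triangle.

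Gene lists were read against the 15.9% of all peaks that were members and the median member score of 4.60. Chromatin regulators had 8 members among 33 peaks (24.2%, 12.8 to 41.0), in 7 of 42 genes, with a median score of 4.14. Trim28 led with 31.2, followed by Tet1, which oxidizes methylated cytosine, with 7.11. Baz2a itself had a single peak in the list, and it was a member: it scored 4.61 over 60 nt at chr10:128128143-128128202, 1421 nt after the CDS in a 3'UTR of 2553 nt. Chd4, the ATPase of the NuRD complex, had a member of 4.33. Pluripotency and signaling genes had 7 members among 33 peaks (21.2%, 10.7 to 37.8), in 5 of 26 genes. Their leading members were those of Nanog with 19.5, the nuclear receptor gene Esrrb with 12.3, Tfcp2l1 with 5.57 and Mycn, a Myc family transcription factor, with 5.28. RNA-binding proteins and splicing factors had 6 members among 43 peaks, led by the helicase gene Ddx17 with 8.40, the splicing factor gene Srsf2 with 7.11, and the pyrimidine-binding protein genes Pcbp1 with 5.31 and Ptbp1 with 4.46.

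In the secretory pathway, chaperones and translocation factors of the endoplasmic reticulum had 12 members among 39 peaks (30.8%, 18.6 to 46.4), in 8 of 24 genes, with a median score of 8.001. The highest were in the lectin chaperone genes Canx with 17.3 and Calr with 11.8, the translocon gene Sec61a1 with 15.3 and the disulfide isomerase gene Pdia6 with 10.1. Solute carriers had 25 members among 80 peaks (31.3%, 22.2 to 42.1), in 17 of 385 genes, with a median of 4.31. After Slc2a3 came the creatine transporter Slc6a8 with 17.4, Slc6a6 with 13.6 and the amino acid transporter Slc7a5 with 10.3. The list went by symbol and included Slc9a3r1, an adaptor protein and no transporter, with 4.16. Cell surface and adhesion genes had 6 members among 25 peaks (24%, 11.5 to 43.4). The highest were Cd81 at 32.3, Cdh1 at 21.5, the tetraspanin Cd9 at 11.9 and the integrin Itgb1 at 7.14. Extracellular matrix genes had 5 members among 51 peaks (9.80%, 4.26 to 20.98), and 39 of the 51 lay in CDS. The members there were led by the laminin gene Lamc1 with 9.07, the fibronectin gene Fn1 with 6.997, and the proteoglycan genes Hspg2 with 6.50 and Agrn with 6.05.

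Of the genes of translation, factors whose symbol starts with Eif or Eef had 11 members among 33 peaks (33.3%, 19.8 to 50.4), in 9 of 69 genes, with a median of 7.30. Eif4a1 was followed by Eif4ebp2 with 11.4, which restrains cap-dependent initiation and is no initiation factor, Eif5a with 10.1 and the elongation factor Eef2 with 9.77. Ribosomal protein genes had 8 members among 51 peaks (15.7%, 8.17 to 28.0), among them Rpl22 with 9.63 and Rpl39 with 5.64. The symbol rule also took in Rps6ka1, a kinase, with 9.35. Aminoacyl-tRNA synthetases had 3 members among 18 peaks (16.7%, 5.84 to 39.2). Of these members, 2 were those of Lars2 and the other was in Vars, with 3.84. Cytoskeletal genes had 8 members among 38 peaks (21.1%, 11.1 to 36.3). They lay in Cfl1 with 34.7, Tubb5 with 20.9, the beta-actin gene Actb with 16.2, Actn1 with 7.22 and 3 other genes. Of the glycolysis genes, only the glucose transporters Slc2a3 and Slc2a1 had members, 3 among 21 peaks (14.3%, 4.98 to 34.6). The Slc2a1 member of 6.65 lay 19 nt from the end. Heat shock genes had 2 members among 8 peaks (25%, 7.15 to 59.1), Hsp90ab1 with 19.5 and Hspa9 with 2.86. The interval of each share given here is wide, and no list was tested.

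The members were richer in C than the 3'UTRs around them. Over all bases, the GC content was 50.4% in the members, 45.4% in the rest of the same 3'UTRs and 42.9% in all annotated 3'UTRs. Per peak it was 49.0% ± 12.2 (SD over 497 peaks), with 113 members under 40% and 100 over 60%. CDS peaks had 58.5% ± 10.3, 5'UTR peaks 68.7% ± 10.2 and intron peaks 51.3% ± 14.5, and peaks in non-coding exons 52.6% ± 13.3, so the members had the lowest mean of the classes. Over all bases, the members were 28.2% C, 22.2% G, 19.8% A and 29.8% U. The rest of the same 3'UTRs was 22.5% C, 22.9% G, 25.3% A and 29.3% U, so that the members had more C and less A, while G and U differed by less than 1 percentage point. Repeat-masked bases were as common in the members (20.6%) as in the rest of the same 3'UTRs (20.4%), and a masked midpoint was found in 20.9% (17.6 to 24.7) of members, beside 4.58% (3.28 to 6.37) of CDS peaks and 36.6% (34.2 to 39.0) of intron peaks.

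The base at the mode of a member was C in 30.8% (26.9 to 35.0), U in 28.0% (24.2 to 32.1), A in 22.1% (18.7 to 26.0) and G in 19.1% (15.9 to 22.8). For U, A and G the interval held the mean share of the base per peak, which was 30.6% for U, 20.4% for A and 22.1% for G, and for C the mean of 26.9% lay at the lower bound. As background, UV light links proteins to uridine with the highest yield, and at these modes U was no more frequent than in the peaks. In CDS peaks the mode was U in 18.5% (15.8 to 21.5) with a mean U share of 21.7%.

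Pyrimidine motifs were denser in the members than in their 3'UTRs. Motifs were searched on the RNA strand only, in each peak and, at equal length, in a window of 60 nt at the midpoint and in consecutive windows of 60 nt over the 3'UTRs. CCTCCT was in 8.05% (5.97 to 10.8) of the windows at members, 3.26% of the windows in the rest of the same 3'UTRs and 2.77% of those in all 3'UTRs. For TCCTCC, which overlaps it, the shares were 7.85% (5.79 to 10.5), 2.71% and 2.38%. Both 6-mers had been reported for the whole list earlier, so that their presence among the members is no separate result. The run CCCC was in 28.2% (24.4 to 32.3), 17.4% and 14.5%, and the run TTTTT in 20.5% (17.2 to 24.3), 13.7% and 13.8%. A pyrimidine run of 10 nt, searched after the values were seen, was in 148 members (29.8%, 25.9 to 33.9), beside 11.8% (9.65 to 14.4) of CDS peaks, 23.8% (18.6 to 29.97) of 5'UTR peaks, 19.1% (17.2 to 21.1) of intron peaks and 24.03% (17.96 to 31.4) of peaks in non-coding exons. This run was not searched in the rest of the 3'UTRs. It was counted over whole peaks, whose lengths and U content differ between classes. The mean U share was 30.6% in members and 21.7% in CDS peaks, and its part was not tested. The other C-rich motifs were about as common in CDS peaks: over whole peaks, CCTCCT was in 9.46% of members and 9.58% of CDS peaks, TCCTCC in 8.85% and 8.19%, and CCCC in 34.2% and 34.3%.

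Runs of C and the 6-mers went with the score. Over the 4 groups of members by score, from the lowest, the run CCCC was in 12.8%, 30.6%, 38.7% and 54.8%, and either 6-mer was in 7.20%, 11.3%, 17.7% and 17.7%. The peaks also got longer over these groups, from a median of 37 nt to 62, 73.5 and 102.5 nt, and the part of length in these shares was not tested. The mean GC content rose less, from 45.7% to 51.5%.

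Poly(A) signals lay near the annotated ends. The signal was in 54 members (10.9%, 8.42 to 13.9), of which 33 lay within 100 nt of an annotated end. Members with the signal had a median distance of 53 nt (40 to 134) to the nearest end, and those without it 399 nt (345 to 462). Since the poly(A) signal ends the mRNA, a difference in this direction is built in. The distance was not measured for signals outside the members. Of the 120 members within 100 nt of an end, 27.5% (20.3 to 36.1) held the signal. In windows of 60 nt it was in 11.9% (9.32 to 15.01) at members, 5.66% in the rest of the same 3'UTRs and 7.60% in all 3'UTRs. The consecutive windows leave out a remainder of under 60 nt at the 3' side of each stretch, where a signal often lies. These shares are therefore not alike. Counted per kb over whole sequences, the signal occurred 1.57 times in members, 1.39 in the rest and 1.89 in all 3'UTRs. By that count the members lay below all 3'UTRs. Per peak the share rose to 21.5% (18.1 to 25.4) when 20 nt on each side of the peak were added.

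Motifs of other regulators were rare. The AU-rich pentamer ATTTA, linked to mRNA decay, was in 6.64% (4.77 to 9.18) of windows at members, 7.69% in the rest of the same 3'UTRs and 9.51% in all 3'UTRs. Its interval at members lay below the last share only. The Pumilio site TGTANATA was in 2.21% (1.24 to 3.92), 0.946% and 1.16%, so that its interval at members, from 11 windows, lay above both other shares. GCACTT, the site of the ESC microRNAs of the miR-290 family, was in 1.21% (0.554 to 2.61), 1.61% and 1.58%. GGAGA was in 5.63% (3.93 to 8.02), 7.54% and 7.37%. GAAGAA was in 0.805% (0.313 to 2.05), 2.10% and 2.73%, so that its interval at members, from 4 windows, lay below both other shares. Both are of the kind bound by the splicing factor SRSF1. These letters do not show that a factor was bound or was not.

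**Figure D5:**
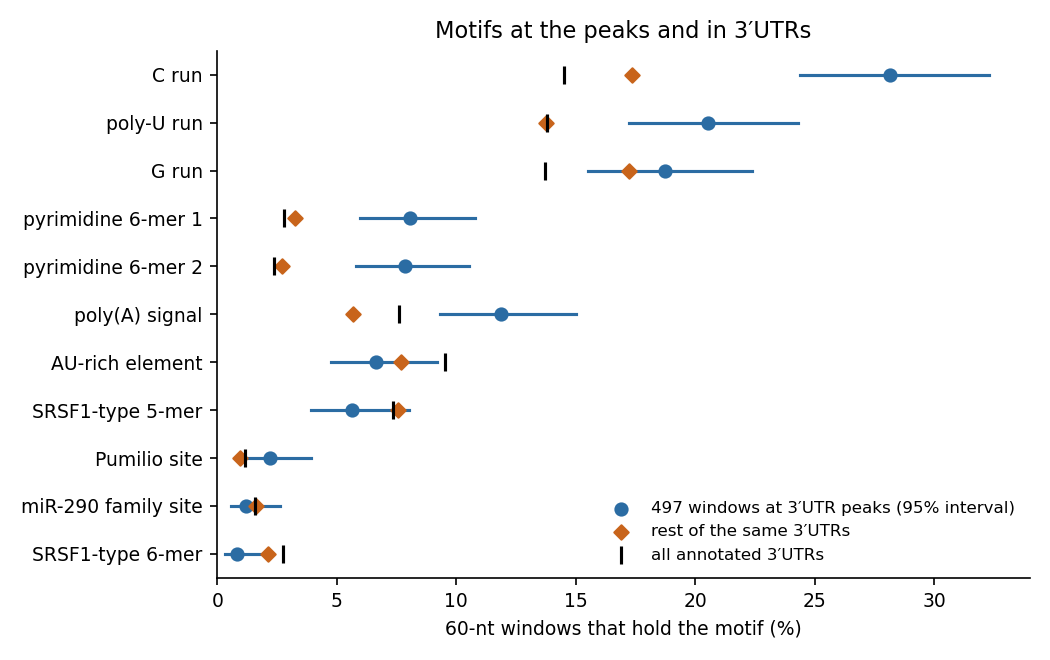
Percentage of windows of 60 nt that hold each motif, for the windows at the 497 members (blue, with Wilson 95% intervals over peaks), the rest of the same 3'UTRs (diamonds) and all annotated 3'UTRs (ticks); the pyrimidine 6-mers 1 and 2 are CCTCCT and TCCTCC. For the C run, the poly-U run, both pyrimidine 6-mers, the Pumilio site and the poly(A) signal the blue interval lies above the other 2 marks. For the poly(A) signal the consecutive windows leave out the last bases of each stretch, and its density per kb was lower in members than in all 3'UTRs.

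Most members were in genes with no peak of another class. The whole list held 3127 peaks in 2288 genes, and so few peaks per gene leave little room for a second class. The same share was not computed for the other classes. Of the 497, 176 (35.4%, 31.3 to 39.7) lay in the 147 genes that also had other peaks. These genes had 147 CDS peaks, 63 intron peaks and 39 5'UTR peaks beside the members. Both a member and a CDS peak were found in 83 genes, 19.1% (15.7 to 23.0) of the genes with a member and 14.8% (12.1 to 18.04) of the 559 genes with a CDS peak. Of all 2288 genes listed, 559 had a CDS peak and 435 had a member. In each of these 83 genes an annotated transcript holds both the best member and the best CDS peak, though whether the reads came from that transcript cannot be told from the list. The best member scored above the best CDS peak in 46 (55.4%, 44.7 to 65.6). Neither class stood above the other in the same gene beyond that interval.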

How the data were processed

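BAZ2A iCLIP was performed in mouse ESCs, with 3 crosslinked and 3 background libraries. Before deposition, the authors trimmed adaptors (Flexbar 3.5), aligned reads to mm10 (STAR 2.6), collapsed duplicates by UMI (UMI-tools 0.5.1) and pooled replicates for peak calling (omniCLIP 0.1.0, genes of Ensembl 100). The deposited values are a score for each peak, whose scale is not stated, and they were compared only within the list. Alignment decides where reads of repeated sequence are placed, and its rule for them is not given in the sources used here. Per the methods, sequencing was done on mixtures of a crosslinked library and its background library.

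Peaks were set against GENCODE M21 of mm10, which held all genes with a member, and sequences were read from GRCm38.p6. Coordinates are 1-based. A midpoint in several classes was given to the CDS first, then to the 3'UTR, the 5'UTR, non-coding exons and introns. Shares carry Wilson 95% intervals, medians exact binomial order-statistic 95% intervals, and means the SD over peaks. These cover counting error only, and no p-value was computed. Copies were sought with blastn 2.17.0 (e-value up to 1e-05), and matches between peaks over at least 50% of the member. The text names the 15 peaks with the highest score, the genes with 3 or more members and up to 4 genes of each of 14 lists. Any other named item was picked with its values in view, as were the searches for the histone stem-loop, iron-responsive elements, pyrimidine runs and copies. The values of 1 member that these rules would name are not reported here. The members and all lists were chosen with earlier results of these data known. The tools were matplotlib 3.10.9, scipy 1.17.1, pandas 2.3.3 and numpy 2.4.6 in Python 3.11.15, and the scripts were tested on simulated data.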

Additional observations from a re-analysis of the deposited data

How the results depend on the processing

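Of 207 values over 22 results and their alternatives, 184 stayed within the interval of the value reported (for counts, within 1.5 times), 23 moved and 0 reversed. Among the 50% of all listed peaks with the highest score there were 274 members in 243 genes, with a median score of 6.47, a median length of 84.5 nt, a mean GC of 50.9%, CCTCCT in 13.1% and a C run in 45.6%. With the whole peak inside the 3'UTR and no CDS base, 8.09% lay within 100 nt of the stop codon. With the midpoint in no other class of another transcript this share was 8.53%, the mean GC 47.1% and the C run share 29.4%. Windows of 50 and 200 nt gave 12.5% and 37.0% for annotated 3' ends, and 6.04% and 22.9% for the stop codon. With 20 nt on each side of the peak, the shares were 21.5% for the poly(A) signal, 13.1% for the AU-rich element, 36.2% for the poly-U run, 10.9% for GGAGA, 2.41% for GAAGAA, 40.6% for the C run and 28.2% for the G run. In windows of 60 nt, chosen after seeing the data, the C run share was 28.2%. Without the 31 members whose interval is listed on both strands, likewise chosen after seeing the data, 466 members remained and each of the 22 results stayed within those limits. Longer windows hold more of any motif by construction; the other causes were not tested.

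No paired analysis was possible because the list pools the replicates and gives no value per library, so that leaving out a replicate was likewise not run. The depth of the libraries cannot be read from the list, and the absence of a peak from a 3'UTR is not read as absence of binding.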

Other observations

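The 11 members with a Pumilio site included Arl6ip1 with a score of 17.2 over 250 nt, Cd9 with 11.9, Lamc1 with 9.07 and both members of Trh, the precursor of thyrotropin-releasing hormone, with 8.91 and 8.09. Trh was chosen after its values were seen, as the only gene with more than 1 such member. Suz12, a Polycomb subunit, had a member with the site, of 3.94.

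Of 495 distinct members, 23 matched a peak elsewhere in the list over at least 50% of their length, and their median share of repeat-masked bases was 97.1%. Of these, 8 matched 10 or more peaks, most of them in introns: Cbx5, which encodes a heterochromatin protein, matched 45, of which 39 were in introns, with a score of 4.22.

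Of the 7 members of 18 nt or shorter, the one in Inppl1, with a score of 5.24 over 16 nt, carried the layout of the background libraries' barcode in or within 10 nt of it; its part in that peak was not tested. Of the longer members, 1 carried the same layout, and 1 member carried that of the crosslinked libraries. Intervals listed on the same strand under more than 1 gene accounted for 10 members, such as Ifitm2 with 17.4 and Rbm14 with 9.24, and 487 members remained without them.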
